A study of Mus musculus with 4 samples.

Results

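A set of 7 genes of purinergic signalling was followed in single brain cells 3 days after ischemic stroke: the nucleotide receptors P2ry12, P2ry13, P2ry6, P2rx4 and P2rx7, the nucleotidase Entpd1 and the adenosine receptor Adora3. They were chosen by name, and all 7 were found among the 32286 features of the count matrices. In microglia-like cells the RNA of P2ry12, P2ry13, Entpd1, Adora3 and P2rx7 was lower after stroke, that of P2rx4 was slightly higher, and that of P2ry6 did not pass the test.

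The cells came from Tmem119-2A-CreERT2;Ai6 mice, in which an inducible Cre made from the Tmem119 locus, a gene of microglia, switches on the green protein ZsGreen. For stroke the middle cerebral artery on the right was tied off for good (pMCAO), and sham mice had the surgery without this step. The operated hemisphere was dissociated and live ZsGreen+ cells were sorted and sequenced with 10x Genomics 3' chemistry. There were 4 pools, female stroke, female sham, male stroke and male sham, each made from 4 mice and each the only pool of its group. The sources used here give neither the mice's age nor how Cre was induced.

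The pools held 5931, 4562, 4944 and 5000 barcodes in that order and 66072270, 29581392, 52733857 and 40970923 unique molecular identifiers (UMIs, counts of captured RNA molecules). No barcode had fewer than 501, 500, 500 and 4198 UMIs, so the male sham pool, deposited with 5000 barcodes, held no cells of low UMI count. What set this limit is unknown here. Any 2 pools shared 4 to 11 barcodes. After quality control 18037 cells remained, and 13902 of them, 3462, 3172, 3257 and 4011 by pool, were called microglia-like from markers that did not include the 7 genes. The sort did not hold microglia alone: cells resembling monocyte-derived macrophages (1430), choroid plexus (793), neurons (492), oligodendrocytes (269), border-associated macrophages (231) and neutrophils (193) were present too. Cells are not replicates, so tests were made on sums per pool.

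ATP released by damaged cells acts on P2X receptors, which are ion channels, and is broken down outside the cell to ADP, AMP and adenosine. Microglia sense ADP through the Gi-coupled receptors P2Y12 and P2Y13, and P2Y12 directs their processes towards injury. UDP acts on P2Y6, which is known for its part in phagocytosis, and adenosine acts on A3 and other adenosine receptors. CD39, the product of Entpd1, is the surface enzyme that converts ATP and ADP to AMP.

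Several of these genes lie side by side in the mouse genome (GRCm38, mm10). P2ry13 (chr3:59207892-59210882, minus strand) lay 5390 bases from P2ry12 (chr3:59216272-59262871, minus strand), and both sit inside Med12l on the opposite strand. P2rx7 (chr5:122643911-122691432, plus strand) lay 16112 bases from P2rx4 (chr5:122707544-122729738, plus strand). The other genes were P2ry6 (chr7:100937630-100974649, minus strand), Entpd1 (chr19:40612366-40741602, plus strand) and Adora3 (chr3:105870858-105908926, plus strand). Adora3 is overlapped on its own strand by Tmigd3, so its count is uncertain to the extent that reads were divided between them.

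The promoters of the 2 neighbouring pairs are shown, since the first pair was lower after stroke together whereas P2rx7 was lower and P2rx4 higher. Each is the 250 bases before the gene's start in RefSeq on GRCm38.p6, written in the direction of the gene, with matches to the motifs searched in capitals. P2ry12 stands at chr3:59262986-59263235 (minus), P2ry13 at chr3:59210883-59211132 (minus), P2rx7, the first of 2 starts, at chr5:122643677-122643926 (plus) and P2rx4 at chr5:122707294-122707543 (plus).
P2ry12: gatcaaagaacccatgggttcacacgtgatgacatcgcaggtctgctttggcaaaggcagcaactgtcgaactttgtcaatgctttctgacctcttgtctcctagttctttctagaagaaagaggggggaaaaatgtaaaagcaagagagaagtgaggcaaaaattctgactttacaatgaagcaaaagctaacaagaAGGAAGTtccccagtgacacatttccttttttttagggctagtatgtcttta
P2ry13: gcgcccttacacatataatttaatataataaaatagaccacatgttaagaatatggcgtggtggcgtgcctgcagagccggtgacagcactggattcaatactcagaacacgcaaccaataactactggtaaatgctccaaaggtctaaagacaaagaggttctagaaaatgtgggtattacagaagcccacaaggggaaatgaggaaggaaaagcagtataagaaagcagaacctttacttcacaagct
P2rx7: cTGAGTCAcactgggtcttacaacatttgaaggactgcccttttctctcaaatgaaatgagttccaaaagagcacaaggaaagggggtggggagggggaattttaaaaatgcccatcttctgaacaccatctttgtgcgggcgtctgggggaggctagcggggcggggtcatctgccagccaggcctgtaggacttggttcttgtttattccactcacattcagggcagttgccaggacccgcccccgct
P2rx4: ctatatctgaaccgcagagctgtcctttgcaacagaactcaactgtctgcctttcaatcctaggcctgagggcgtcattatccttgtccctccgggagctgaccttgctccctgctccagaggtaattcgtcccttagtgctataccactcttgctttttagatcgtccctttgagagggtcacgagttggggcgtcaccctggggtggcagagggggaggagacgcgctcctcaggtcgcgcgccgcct

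Searches on both strands were made for 2 motifs: AGGAAGT, of the type bound by the myeloid factor PU.1, and TGANTCA, of the type bound by AP-1. AGGAAGT began 52 bases before the start of P2ry12 and 30 bases before that of Adora3, and 7.69% of 32851 RefSeq promoters of the same length hold it. TGANTCA was found 249 bases before the first start of P2rx7 and 98 bases before the start of Adora3, against 6.75% of all promoters. No other match was found in the windows searched, which did not include P2ry6. A match describes letters and is not evidence of binding.

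P2ry12 and P2ry13, the ADP receptors, were lower in both stroke pools. P2ry12 had 9.90 and 10.4 UMIs per 10,000 in the female and male stroke pools, against 33.0 and 27.9 in the female and male sham pools. P2ry13 had 2.52 and 2.67 UMIs per 10,000 in the female and male stroke pools, against 8.06 and 5.66 in the female and male sham pools. For both genes the male sham pool was the lower of the sham pools, and the stroke pools did not overlap the sham pools. How many of all genes separate in this way on unscaled levels was not counted. Values are sums of the gene's UMIs over the sums of all UMIs in microglia-like cells. Their exact Poisson 95% intervals, which cover counting error only, spanned 9.81 to 10.0 for P2ry12 in the female stroke pool.

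The changes were tested with edgeR's quasi-likelihood test on pool sums with a term for sex, scaled by the trimmed mean of M values (TMM) and adjusted after Benjamini and Hochberg over 14188 genes. P2ry12 fell by 1.28 ± 0.16 on the log2 scale (SE, adjusted p = 1.3e-06) and P2ry13 fell by 1.08 ± 0.16 (adjusted p = 1.2e-05), each in both sexes. The model has 1 residual degree of freedom, moderated over all genes, so the p-values measure the spread between these 4 pools and variation between mice is unknown. TMM set the median change of all genes to -0.05. With plain library totals that median was -0.35, so changes computed that way run lower for every gene.

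**Figure D1:**
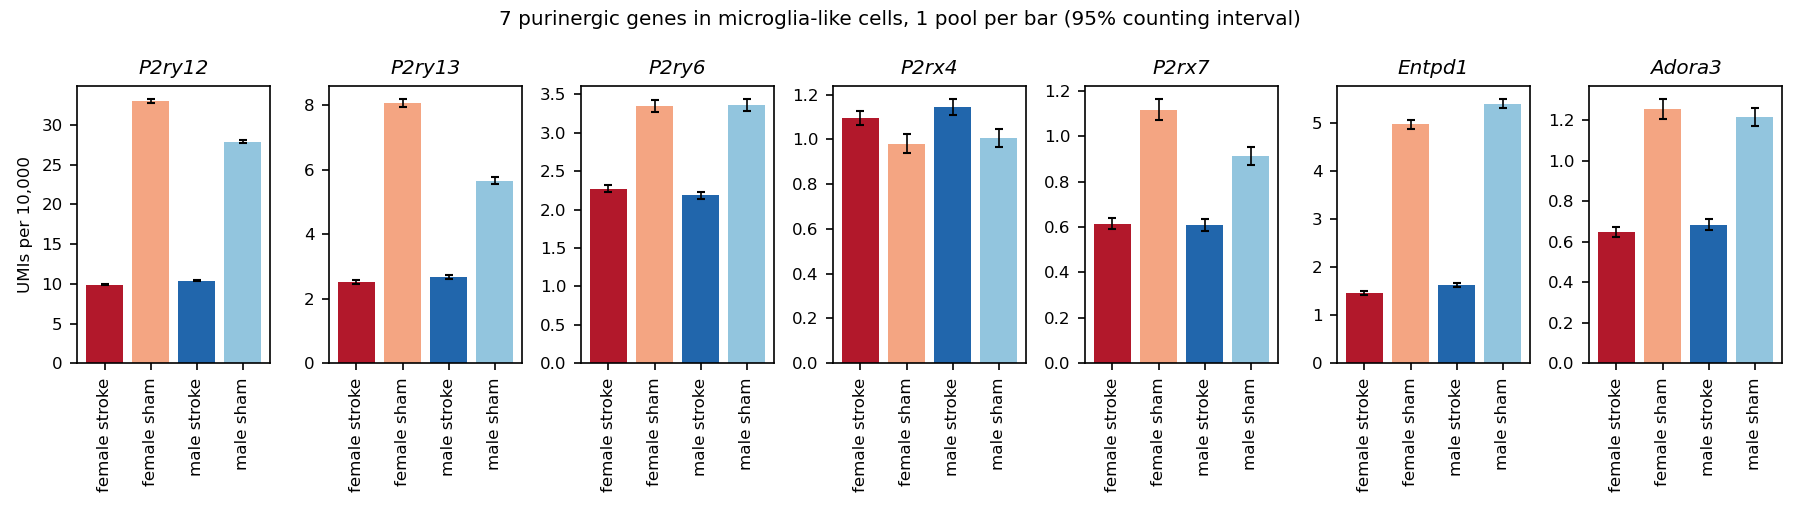
UMIs per 10,000 of each gene in the microglia-like cells of each pool (bars, axes from 0, a separate axis for each gene), with exact Poisson 95% counting intervals as error bars. Stroke bars stand below sham bars except for P2rx4, where they stand above, at 1.10 and 1.15 against 0.98 and 1.01. The levels are unscaled, and how many of all genes separate in this way was not counted. With library totals 6386 of all 14188 genes were called lower and 2294 higher in the edgeR test. The change of P2ry6 did not pass with TMM.

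Microglia-like cells differ in depth, with a median of 8825 and 8789 UMIs in the female and male stroke pools against 6175 and 5422 in the female and male sham pools. Shares of cells were therefore also read after thinning every cell to 3000 UMIs, which left out 269 and 266 stroke cells and 304 and 0 sham cells. At that depth P2ry12 was detected in 85.5% and 85.7% of female and male stroke cells, against 99.2% and 98.3% of female and male sham cells. Unthinned, these shares were 96.6% and 96.6% in the stroke pools, against 98.9% and 99.4% in the sham pools. The median thinned cell held 3 P2ry12 UMIs in each stroke pool, against 10 and 8 in the female and male sham pools. Most stroke cells therefore still held P2ry12 RNA, and the median cell held fewer molecules. Stroke cells were not alike in this. At that depth 27.7% and 30.6% of female and male stroke cells held 6 or more P2ry12 UMIs, against 81.0% and 74.4% of female and male sham cells. In the choroid plexus-like cells, which should lack the gene, P2ry12 was detected in 30 of 100 and 7 of 46 cells of the female and male stroke pools, and in 29.7% and 40.1% of cells of the female and male sham pools. Their P2ry12 level was 1.40 and 0.52 UMIs per 10,000 in the female and male stroke pools, against 0.82 and 0.86 in the female and male sham pools. Their median depth was 21530 and 22686 UMIs in the female and male stroke pools, against 17145 and 21777 in the female and male sham pools.

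Entpd1 had 1.46 and 1.62 UMIs per 10,000 in the microglia-like cells of the female and male stroke pools, against 4.96 and 5.39 in those of the female and male sham pools. It fell by 1.45 ± 0.14 on the log2 scale (edgeR, adjusted p = 6.9e-08). The sexes differed little within a group. After thinning, 39.6% and 42.6% of female and male stroke cells held an Entpd1 UMI, against 74.4% and 77.7% of female and male sham cells. Unthinned, the shares were 70.6% and 74.8% against 89.2% and 93.3%.

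P2ry6, the UDP receptor, had 2.27 and 2.19 UMIs per 10,000 in the female and male stroke pools, against 3.35 and 3.36 in the female and male sham pools. The groups did not overlap on this unscaled level, but with library totals the median change of all genes was also below 0, at -0.35. The TMM-scaled change was -0.29 ± 0.14 on the log2 scale and did not pass the edgeR test (adjusted p = 0.095). It passed with library totals (-0.59), and also without the sex term (-0.29), without the female sham pool (-0.33) and without the male sham pool (-0.20). It did not pass with DESeq2 (-0.26, adjusted p = 0.17), without the female stroke pool (-0.31, adjusted p = 0.41), without the male stroke pool (-0.26, adjusted p = 0.49) or after thinning (-0.21, adjusted p = 0.25). Thinning and leaving out dividing cells gave -0.0764 (adjusted p = 0.75). Detection at equal depth was 51.5% and 48.9% of female and male stroke cells, against 62.1% and 60.8% of female and male sham cells, and without thinning 83.0% and 81.8% against 82.0% and 82.8%.

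The ATP-gated channels P2rx4 and P2rx7 differed in direction. P2rx4 had 1.10 and 1.15 UMIs per 10,000 in the female and male stroke pools, against 0.98 and 1.01 in the female and male sham pools. It rose by 0.47 ± 0.13 on the log2 scale (edgeR, adjusted p = 0.0064). The unscaled difference was small beside this, and with library totals the change was 0.17 and was not called (adjusted p = 0.26). Without the female stroke pool it was 0.52 (adjusted p = 0.072) and without the male stroke pool 0.44 (adjusted p = 0.15), neither of which passed. At equal depth P2rx4 was found in 27.7% and 26.8% of female and male stroke cells, against 24.3% and 25.2% of female and male sham cells, and without thinning in 57.7% and 57.5% against 41.8% and 41.0%.

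P2rx7, whose channel drives inflammasome activation at high ATP, had 0.61 UMIs per 10,000 in each stroke pool, against 1.12 and 0.91 in the female and male sham pools. It fell by 0.42 ± 0.13 on the log2 scale (edgeR, adjusted p = 0.013). The female sham pool was highest. The call did not hold without the female stroke pool (-0.42, adjusted p = 0.18) or the male stroke pool (-0.42, adjusted p = 0.19). It was -0.30 after thinning (adjusted p = 0.087) and -0.15 after thinning and leaving out dividing cells (adjusted p = 0.47).

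Adora3, the A3 adenosine receptor, had 0.65 and 0.68 UMIs per 10,000 in the female and male stroke pools, against 1.25 and 1.21 in the female and male sham pools. It fell by 0.59 ± 0.13 on the log2 scale (edgeR, adjusted p = 0.0011). Without the female stroke pool the change was -0.54 and was not called (adjusted p = 0.072). Thinning gave -0.39 (adjusted p = 0.019), and thinning and leaving out dividing cells gave -0.25 (adjusted p = 0.19). Tmigd3, which shares its position and strand, had 162 UMIs in all microglia-like cells and did not pass the test, against 10588 for Adora3.

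The mitochondrial share of UMIs, a sign of RNA quality, differed with treatment. Its median in microglia-like cells was 4.93% and 4.56% in the female and male stroke pools, against 2.08% and 1.18% in the female and male sham pools. The limit of 10% left out 13.96% and 15.1% of female and male stroke barcodes, against 9.21% and 0.84% of female and male sham barcodes. With a limit of 5% and at least 1000 genes a cell, the changes were -1.11 for P2ry12, -0.96 for P2ry13, -1.25 for Entpd1, -0.56 for Adora3, -0.37 for P2rx7 and 0.38 for P2rx4, and the calls of all 7 genes were as before. After thinning alone the changes were -0.93 for P2ry12, -0.88 for P2ry13 and -1.11 for Entpd1. After thinning and leaving out dividing cells they were -0.71, -0.71 and -0.86. Each was smaller than with all cells but still called, and part of the decrease came with thinning alone.

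Of the 7 genes, 1 rose and 5 fell in the edgeR test. Among all 14188 genes 24.8% were called higher and 24.3% lower, so calls were common in this comparison and the count says little by itself. With library totals none of the 7 rose and 6 fell, while 2294 of all genes rose and 6386 fell, against 3514 and 3444 with TMM. Without the female stroke pool none rose and 3 fell, where 2314 of all 14425 genes tested rose and 1656 fell. After thinning and leaving out dividing cells 1 rose and 3 fell, where 1804 of all 11904 genes rose and 1287 fell. The 3 were P2ry12, P2ry13 and Entpd1, as plotted with the changes within clusters.

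RNA of marker genes of other cell classes differed between the microglia-like sums. The 10 monocyte-derived macrophage markers summed to 4.50 and 4.60 UMIs per 10,000 in the female and male stroke pools, against 0.13 and 0.11 in the female and male sham pools, with none at 0. Most of this was Fn1, at 4.06 and 4.20 in the stroke pools. Fn1 was also among the leading genes of the microglia-like Spp1 and Igf1 high cluster, and the source of its RNA was not tested. The 7 choroid plexus or ependymal markers summed to 1.72 and 1.10 UMIs per 10,000 in the stroke pools, against 5.79 and 16.8 in the sham pools, with 1 or 2 markers at 0 in each pool. The 6 oligodendrocyte markers summed to 0.36 and 0.35 in the stroke pools, against 0.987 and 0.997 in the sham pools, with none at 0. The 6 neuron markers summed to 0.057 and 0.066 in the female and male stroke pools, against 0.65 and 0.83 in the female and male sham pools, with 1 at 0 in the male stroke pool. The 8 dendritic cell markers summed to 0.97 and 0.98 in the stroke pools, against 2.85 and 3.07 in the sham pools, with 1 at 0 in each sham pool. Fscn1, a marker on this list, was among the leading genes of microglia-like clusters 4 and 5, and the source of its RNA was not tested. The 6 neutrophil markers summed to 1.33 and 1.34 in the stroke pools, against 2.11 and 1.82 in the sham pools, with up to 2 at 0. The 7 border-associated macrophage markers summed to 0.34 and 0.25 in the stroke pools, against 0.084 and 0.17 in the sham pools, with up to 2 at 0. Leaving out cells with 2 or more UMIs of macrophage markers (Fn1 and Vcan apart), a comparison added after the data were seen, changed none of the 7 calls, with -1.12 for P2ry12, -1.31 for Entpd1 and 0.45 for P2rx4. The part of RNA of the other classes in the changes was not tested.

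The microglia-like cells fell into 10 clusters, built without the 7 genes and other purinergic genes, and the pools filled them unevenly. A cluster led by Spp1, Lpl and Igf1, genes of microglia that respond to damage, held 17.4% and 17.0% of female and male stroke microglia-like cells, against 0.032% and 0.32% of female and male sham cells. A cluster of dividing cells (Top2a, Mki67) held 15.02% and 14.03% of stroke cells, against 0.50% and 1.22% of sham cells. Sham cells lay mostly in clusters 0, 4 and 5, but 68.0% of female sham cells lay in cluster 0, whereas 31.6% and 48.0% of male sham cells lay in clusters 4 and 5. Sex, pool and the higher UMI selection of the male sham pool cannot be told apart in that split.

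In stroke cells P2ry12 followed the clusters closely. Its level was 29.3 and 29.5 UMIs per 10,000 in cluster 0 of the female and male stroke pools, and 18.7 and 19.9 in cluster 3. It was 12.9 and 12.1 in cluster 1, led by Cst7, 9.91 and 12.8 in the chemokine-high cluster and 11.9 and 11.4 in the interferon cluster. These last clusters overlapped or nearly touched, and their order is not resolved. P2ry12 was 5.78 and 5.53 in dividing cells and lowest in the Spp1 and Igf1 high cluster, at 3.56 and 3.81. The steps from cluster 0 to cluster 3, from cluster 3 to those below it, and to dividing cells and the Spp1 and Igf1 high cluster were each larger than the difference between the 2 stroke pools. Cluster 0 cells from sham brains held 36.5 and 30.4 UMIs per 10,000 in the female and male pools.

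**Figure D2:**
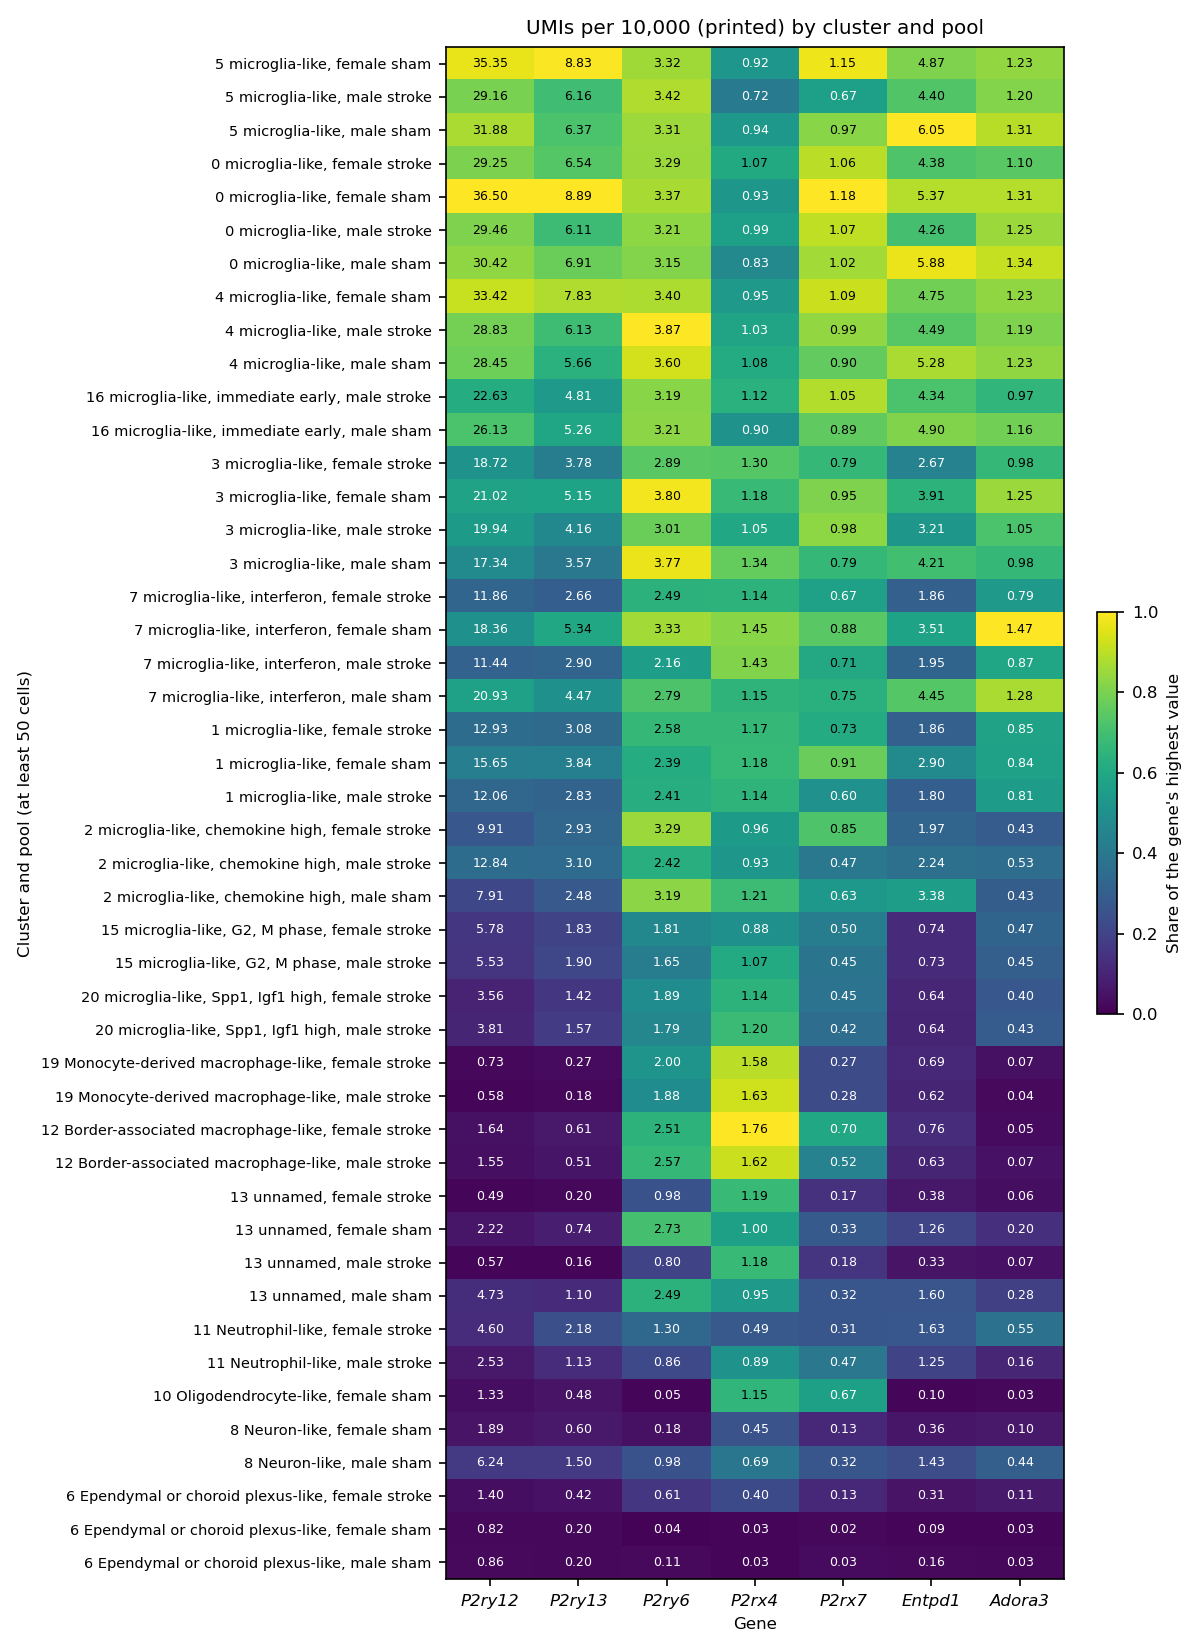
UMIs per 10,000 (printed) of each gene (columns) in each cluster and pool with at least 50 cells (one line each), coloured by share of that gene's highest value. P2ry12, P2ry13, Entpd1 and Adora3 darken from cluster 5 at the top to the Spp1 and Igf1 high cluster and the macrophages, whereas P2rx4 is highest in macrophages.

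P2ry13 and Entpd1 kept the same order at its ends. P2ry13 had 6.54 and 6.11 UMIs per 10,000 in cluster 0 of the female and male stroke pools, and 1.42 and 1.57 in the Spp1 and Igf1 high cluster. Entpd1 had 4.38 and 4.26 in cluster 0, 2.67 and 3.21 in cluster 3, 0.74 and 0.73 in dividing cells, and 0.64 in the Spp1 and Igf1 high cluster of each stroke pool. Entpd1 in that last cluster lay within the 0.69 and 0.62 of monocyte-derived macrophage-like cells in the female and male stroke pools. P2ry12 in the same cells, at 3.56 and 3.81, stayed above the 0.73 and 0.58 of those macrophages.

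The remaining genes varied less across the microglia-like clusters. P2ry6 ran from 1.65 in dividing cells of the male stroke pool to 3.87 in cluster 4 of the same pool. P2rx7 ran from 0.42 in the Spp1 and Igf1 high cluster of the male stroke pool to 1.18 in cluster 0 of the female sham pool. Adora3 had 0.40 and 0.43 in the Spp1 and Igf1 high cluster of the female and male stroke pools, 0.43 and 0.53 in the chemokine-high cluster and 0.47 and 0.45 in dividing cells, with 1.10 and 1.25 in cluster 0. P2rx4 stayed between 0.72 and 1.45 UMIs per 10,000 in every microglia-like cluster and pool with at least 50 cells, and had 1.14 and 1.20 in the Spp1 and Igf1 high cluster of the female and male stroke pools.

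Clusters 0, 3 and 7 held at least 50 cells in all 4 pools, so stroke and sham were also compared inside them, in fits added after the data were seen. In cluster 0 none of the 7 genes passed the edgeR test (1.95% of 9114 genes did), with -0.08 ± 0.12 for P2ry12, -0.22 ± 0.13 for P2ry13 and -0.27 ± 0.13 for Entpd1. At an unadjusted p under 0.05 there were 2, Entpd1 and P2rx4 (0.33 ± 0.15). In cluster 3 none passed (3.48% of 10497 genes did), with 0.11 ± 0.18 for P2ry12 and -0.37 ± 0.16 for Entpd1, the only 1 at an unadjusted p under 0.05. With library totals Entpd1 passed in cluster 3 (-0.47, adjusted p = 0.034). These misses do not show that the levels were equal, and the fits rest on as few as 128 cells in a pool.

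In cluster 7, led by the interferon-induced genes Ifit3, Ifit2 and Isg15, 3 of the 7 fell where 2.86% of 9464 genes were called lower. P2ry12 there had 11.9 and 11.4 UMIs per 10,000 in the female and male stroke pools, against 18.4 and 20.9 in the female and male sham pools, and fell by 0.54 ± 0.18 on the log2 scale (edgeR, adjusted p = 0.033). P2ry13 had 2.66 and 2.90 against 5.34 and 4.47, and fell by 0.60 ± 0.17 (adjusted p = 0.0098). Entpd1 had 1.86 and 1.95 against 3.51 and 4.45, and fell by 0.85 ± 0.17 (adjusted p = 6.0e-05). For each of the 3 the groups did not overlap on these unscaled levels, but how many of all genes separate in this way was not counted. With library totals the median change of all genes in this cluster was -0.23. The other 4 genes did not pass, although Adora3 did with library totals (-0.72, adjusted p = 0.0089), and only 57 and 76 sham cells lay in this cluster.

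**Figure D3:**
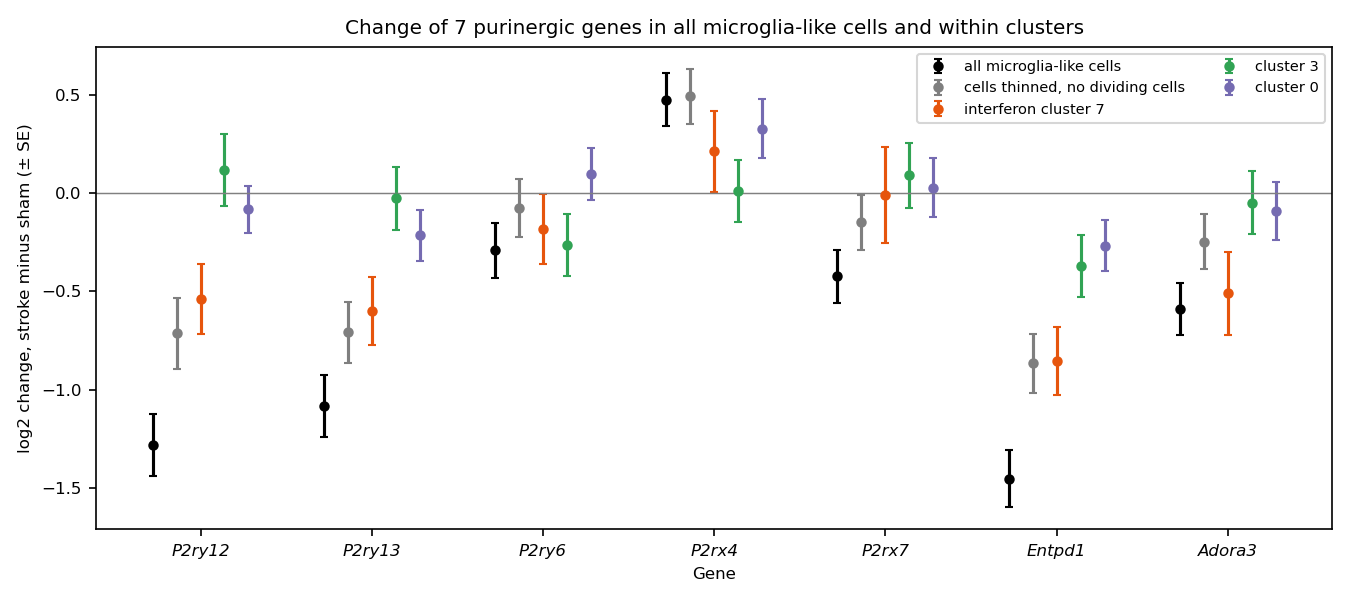
Log2 change, stroke minus sham (± SE), of each gene in all microglia-like cells, in thinned cells without dividing cells, and within clusters 7, 3 and 0. The points of P2ry12, P2ry13 and Entpd1 lie far below 0 in all microglia-like cells (-1.28, -1.08 and -1.45) and nearer to 0 in clusters 3 and 0, and P2rx4 lies above 0 (with library totals it is -0.0896 in cluster 3 and -0.00145 in cluster 7).

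Cells were also grouped by their own P2ry12 count after thinning, to read the other 6 genes in cells that kept or had little P2ry12. In stroke cells Entpd1 increased with P2ry12. It had 0.78, 1.19, 2.07 and 3.34 UMIs per 10,000 in female stroke cells with 0, 1 to 2, 3 to 5 and 6 or more P2ry12 UMIs, and 0.57, 1.36, 2.30 and 3.55 in male stroke cells. In sham cells with 6 or more P2ry12 UMIs it had 5.25 and 5.76 in the female and male pools. Stroke cells had less Entpd1 than sham cells of the same P2ry12 count class, beyond the counting intervals in every class (for 6 or more, 3.12 to 3.57 in female stroke cells, against 5.08 to 5.42 in female sham cells). A class rests on a count of few UMIs with sampling error. The median count was 3 in each stroke pool, against 10 and 8 in the female and male sham pools. Cells of the same class are therefore not matched for their P2ry12 level, and a difference at equal level was not tested. The highest class is also open-ended, with a mean P2ry12 of 30.04 UMIs per 10,000 in female stroke cells and 38.5 in female sham cells.

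P2ry13 had 1.42, 2.02, 3.14 and 5.06 UMIs per 10,000 over the same classes of female stroke cells, and 1.31, 2.09, 3.31 and 5.31 in male stroke cells. With 6 or more P2ry12 UMIs it had 8.83 and 6.35 in female and male sham cells. The receptor pair thus varied together between cells as well as between clusters. P2rx4 had 1.21, 1.18, 1.17 and 1.07 in female stroke cells and 1.17, 1.10, 0.99 and 1.10 in male stroke cells, with overlapping counting intervals throughout. In sham cells with 6 or more P2ry12 UMIs it had 0.93 and 0.94 in the female and male pools, below the 1.97 of the 22 female sham cells with 0 and the 1.33 of male sham cells with 1 to 2, beyond the counting intervals. These are descriptions of cells within a pool and carry no test.

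**Figure D4:**
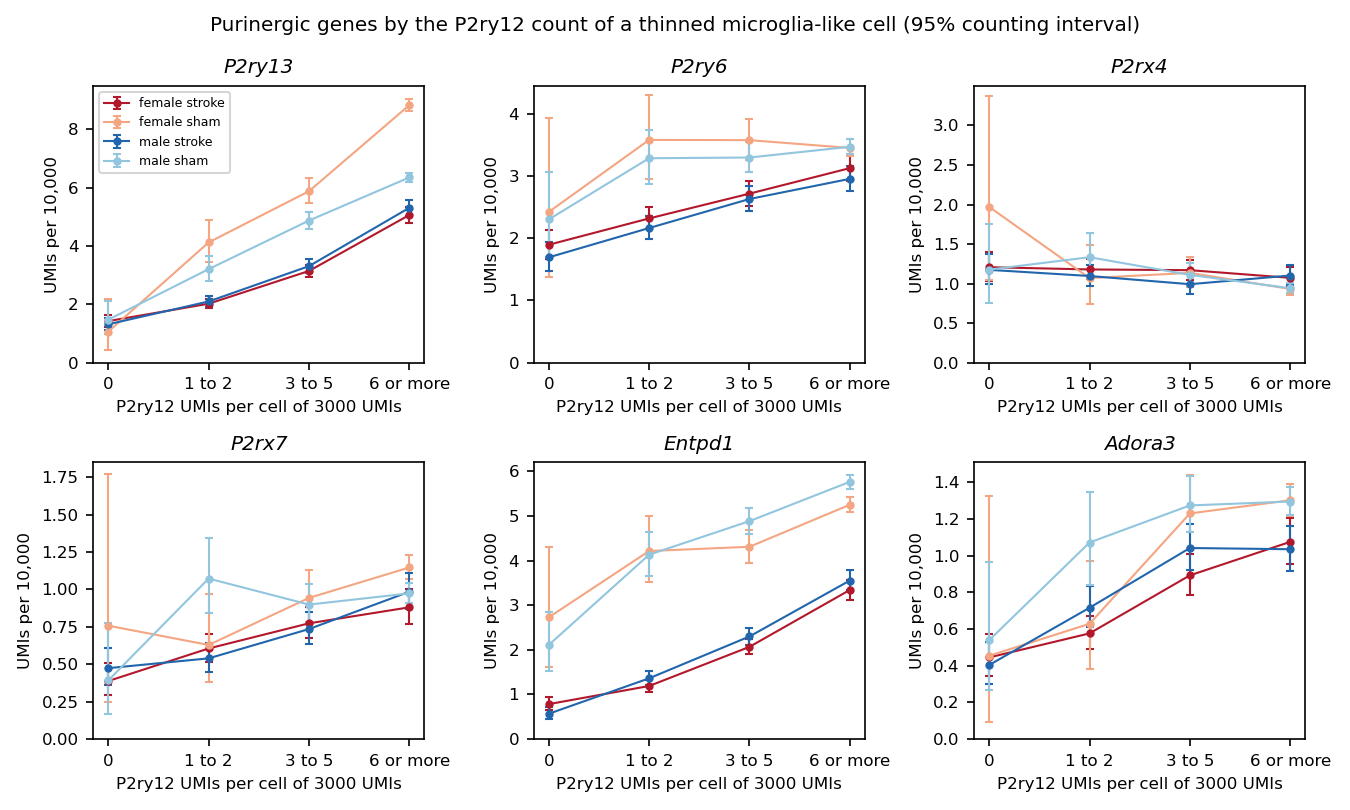
UMIs per 10,000 of 6 genes (vertical axes) in microglia-like cells thinned to 3000 UMIs and grouped by their P2ry12 UMIs (horizontal axes), 1 line per pool, with exact Poisson 95% counting intervals. Entpd1 and P2ry13 increase with P2ry12 and the stroke lines run below the sham lines in most classes, whereas P2rx4 does not increase with it and is lowest at 6 or more P2ry12 UMIs in both sham pools.

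Macrophages had another pattern. Monocyte-derived macrophage-like cells, read in the stroke pools because the sham pools held 4 and 14, had 0.73 and 0.58 UMIs per 10,000 of P2ry12 and 0.27 and 0.18 of P2ry13 in the female and male pools. They had 0.066 and 0.038 of Adora3 and 0.27 and 0.28 of P2rx7. For P2ry12 the choroid plexus-like cells, which should lack it, had 1.40 and 0.52 in the same pools. Whether the macrophages made their own P2ry12, P2ry13 and Adora3 RNA was not tested. P2ry6 stood at 2.00 and 1.88 in the macrophages, against 2.27 and 2.19 in the microglia-like cells of the same pools. P2rx4 stood at 1.58 and 1.63, above the 1.10 and 1.15 of microglia-like cells, so microglia-like cells held 69.5% and 70.2% of the macrophage level. These rest on 2134 and 1125 P2rx4 UMIs, and no test was made between classes.

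Border-associated macrophage-like cells, which line vessels and meninges, resembled monocyte-derived macrophage-like cells in P2rx4, P2ry6 and Adora3. In the female and male stroke pools they had 1.76 and 1.62 UMIs per 10,000 of P2rx4, 2.51 and 2.57 of P2ry6 and 0.045 and 0.070 of Adora3. P2rx7 was 0.70 and 0.52 there, higher than in the monocyte-derived class in both pools, against 0.61 in the microglia-like cells of each pool. P2ry12 was 1.64 and 1.55 and P2ry13 0.61 and 0.51, also higher than in the monocyte-derived class. All 4 macrophage values of P2rx4 lay above every microglia-like cluster and pool shown.

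Counts in other classes were set against the ratios seen in microglia. If all RNA of these genes in a class came from microglia, each gene's UMIs would stand to P2ry12 as in the microglia-like cells of that pool. In choroid plexus-like cells of the male sham pool the counts were 0.87 to 1.24 times that value for all 6 other genes. In those of the female sham pool they were 0.74 to 1.14 times for 5 genes and 0.48 times for P2ry6 (10 UMIs, 4.80 to 18.4, against 21.0). In those of the female stroke pool they ran from 1.18 times for Adora3 to 1.89 times for P2ry6 (152 UMIs, 129 to 178, against 80.2) and 2.56 times for P2rx4 (99 UMIs, 80.5 to 121, against 38.7). In oligodendrocyte-like cells of the female sham pool P2rx4 had 67 UMIs (95% interval 51.9 to 85.1), 29.3 times the 2.29 so computed. P2rx7 had 39 UMIs (27.7 to 53.3), 14.98 times the 2.60 so computed, whereas P2ry6, Entpd1 and Adora3 had 3, 6 and 2. In those cells P2rx4 stood at 1.15 and P2rx7 at 0.67 UMIs per 10,000, on a median of 2164 UMIs a cell. In monocyte-derived macrophage-like cells of the female and male stroke pools P2ry13 was 1.47 and 1.24 times the value so computed. Adora3 was 1.38 and 0.995 times there, whereas P2ry6, P2rx4, P2rx7 and Entpd1 were 6.07 to 25.7 times.

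Neuron-like cells of the female sham pool had 83 P2rx4 UMIs, 7.95 times the value computed from P2ry12, and those of the male sham pool 61, or 3.09 times. P2rx7 there was 2.11 and 1.56 times. Neutrophil-like cells of the female and male stroke pools had 1.63 and 1.25 UMIs per 10,000 of Entpd1, which was 2.41 and 3.15 times the value computed from P2ry12. Entpd1 was not alone in this, as P2ry13 was 1.87 and 1.74 times. P2rx4 was 0.97 and 3.22 times and P2rx7 1.10 and 3.16 times, on 23 and 12 UMIs in the male pool. Oligodendrocyte-like cells numbered 247 in the female sham pool and 1 in each stroke pool, so no comparison with stroke was possible for them.

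The wider purinergic pathway was read in a list of 60 further genes, of which 40 were expressed enough in microglia-like cells to be tested. In the edgeR test 10 rose and 11 fell, beside the 24.8% and 24.3% of all genes, with a median change of -0.16 on the log2 scale against -0.05 over all genes. The count that fell was 23 with library totals, 7 with DESeq2, 4 after thinning without dividing cells, and 6 without either stroke pool. The count over all genes moved the same way, with 6386 of 14188 genes lower with library totals, 1746 with DESeq2, 1287 of 11904 after thinning without dividing cells, and 1656 and 1809 without the female and male stroke pools. The 19 others did not pass.

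Among receptors, P2ry2, P2ry14 and Adora1 rose, all at few UMIs (189, 170 and 401 in all microglia-like cells), whereas Gpr34 and P2ry10b, relatives of the P2Y family, fell. P2ry14, a receptor for UDP sugars that lies 54274 bases from P2ry13, had 2.17 and 2.21 CPM (counts scaled to a common library size, with TMM) in the female and male stroke pools, against 0.31 and 0.35 in the sham pools. It rose by 2.72 ± 0.40 (adjusted p = 1.2e-05), opposite to its neighbours. P2ry2, the ATP and UTP receptor 21919 bases from P2ry6, rose by 2.05 ± 0.39 (adjusted p = 0.000202). Adora1, the A1 adenosine receptor, had 4.90 and 4.76 CPM against 1.37 and 1.16, and rose by 1.93 ± 0.27 (adjusted p = 6.2e-06). Gpr34, a lysophosphatidylserine receptor, fell by 0.79 ± 0.15 (adjusted p = 0.000248).

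Microglia-like cells held 33.7% and 17.9% of the macrophage level of P2ry2 in the female and male stroke pools, and 48.3% and 54.6% of that of P2ry14. For the macrophage markers other than Fn1 that share was between 0.10% and 8.05%. Adora1 was higher in microglia-like cells, with only 4 and 6 UMIs in the macrophages of the 2 pools. Without cells that held macrophage markers 10 genes of the list rose and 12 fell, where 3143 of all 13884 genes rose and 2977 fell. The part of macrophage RNA in these levels was not tested.

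Of the other enzymes of extracellular nucleotide breakdown, Enpp1, which hydrolyses ATP to AMP and pyrophosphate, rose while Entpd1 fell. Enpp1 had 29.2 and 28.8 CPM in the female and male stroke pools, against 4.99 and 5.46 in the female and male sham pools, and rose by 2.47 ± 0.16 (adjusted p = 1.4e-10). Its microglia-like level was 38.0% and 37.3% of that in macrophages. Ada, adenosine deaminase, rose by 1.17 ± 0.24 (adjusted p = 0.00056) and Enpp4 fell by 1.01 ± 0.16 (adjusted p = 2.4e-05). Nt5e, which encodes CD73, the enzyme that makes adenosine from AMP, had 15 UMIs in all microglia-like cells and was not tested. Within the cell, Adk, adenosine kinase, rose by 1.10 ± 0.16 (adjusted p = 1.2e-05), and the adenosine transporters Slc29a1 (-0.34) and Slc29a3 (-0.69) and the AMP deaminase Ampd3 (-0.74) fell. The organelle enzymes Entpd5 (1.24) and Entpd7 (0.44) rose.

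**Figure D5:**
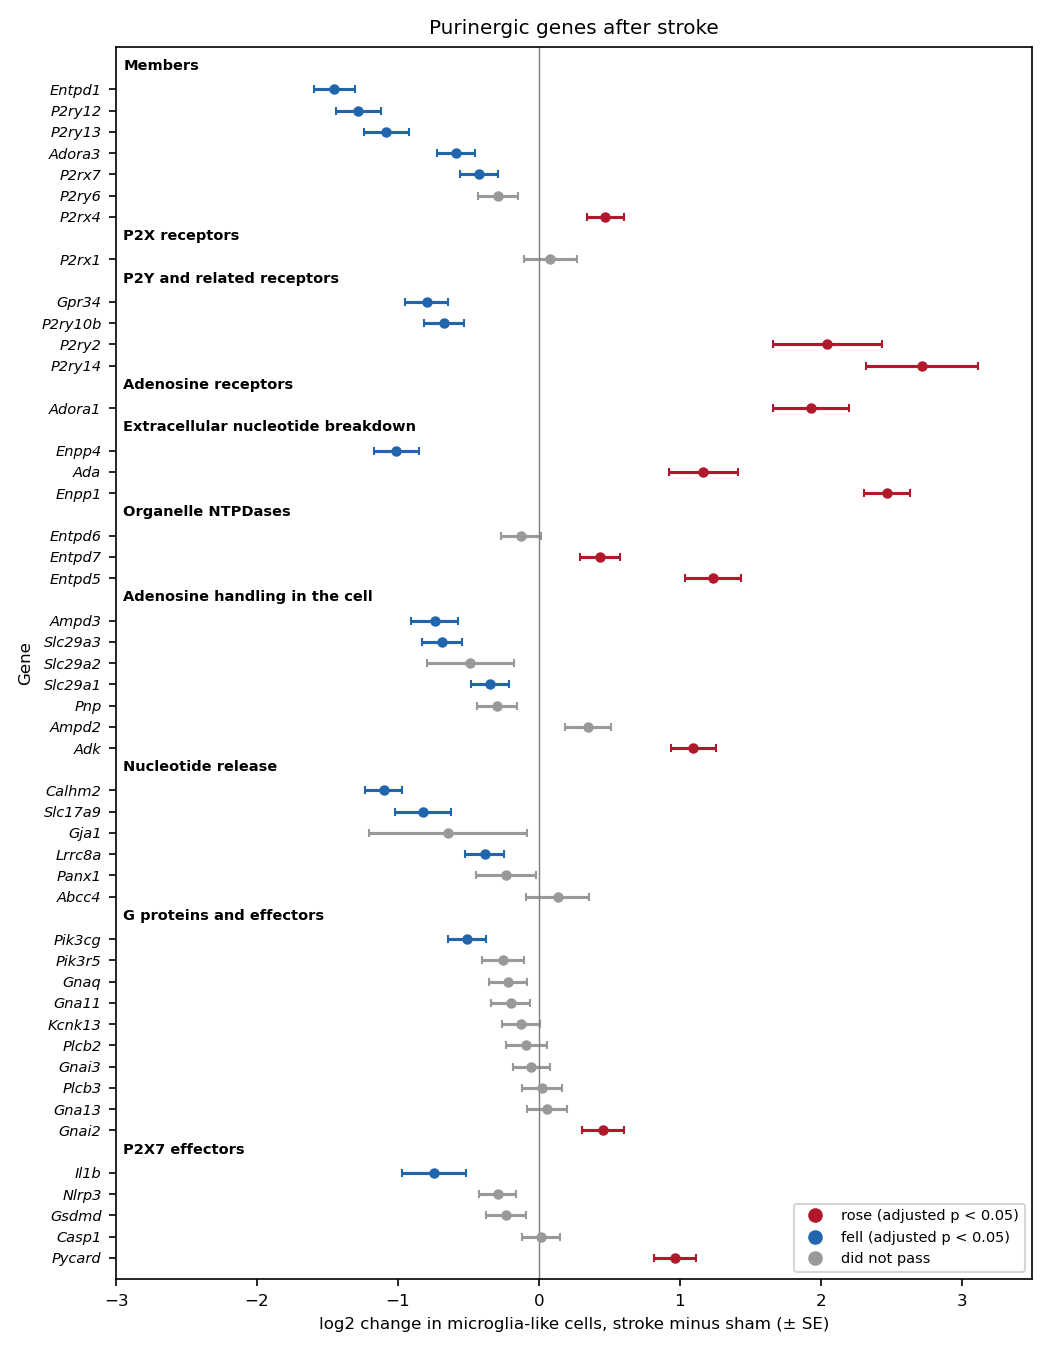
Log2 change, stroke minus sham (± SE, horizontal axis), of the 7 genes (top group, headed Members) and of the 40 tested genes of the wider purinergic list in microglia-like cells, grouped by role and coloured by the edgeR call. Called receptors and enzymes appear on both sides of 0.

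Of 6 tested genes of nucleotide release 3 fell, beside the 24.3% of all genes: the ion channel gene Calhm2 (-1.10), Slc17a9 (-0.82), which loads ATP into vesicles, and the volume-regulated channel subunit Lrrc8a (-0.38). Of 10 G proteins and effectors Gnai2, a Gi subunit that P2Y12 can use, rose by 0.46 ± 0.15 (adjusted p = 0.016), Pik3cg fell by 0.51 ± 0.14 (adjusted p = 0.0044), and 8 did not pass. Among these 8 was Kcnk13, the potassium channel THIK-1 (-0.13). Of 5 genes downstream of P2X7, Pycard, the inflammasome adaptor ASC, rose by 0.97 ± 0.15 (adjusted p = 2.0e-05). Il1b fell by 0.74 ± 0.23 (adjusted p = 0.010), and Nlrp3, Casp1 and Gsdmd did not pass.

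Of the genes around the 7, Med12l, whose span holds P2ry12 and P2ry13, fell by 0.82 ± 0.14 (adjusted p = 8.0e-05). Its direction was that of the receptors, and whether its count is independent of theirs rests on how strand was used in counting, which the sources used here do not state. Camkk2, 1432 bases beyond P2rx4, did not pass (0.16 ± 0.14).

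The sexes were compared in the same model. None of the 7 genes passed for male minus female, where 0.0705% of 14188 genes, 10 in number, were called. The differences ran from -0.17 ± 0.16 for P2ry13 to 0.18 ± 0.14 for Entpd1, with adjusted p from 0.995 to 0.998, and 0 of the 7 had an unadjusted p under 0.05. Unscaled, the stroke over sham log2 ratio of P2ry13 was -1.08 in males and -1.68 in females, and that of P2ry12 was -1.42 and -1.74. The difference between sexes in the response has no replicate and was not tested. It is what the model uses as its residual.

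Likeness between genes was read over 47 combinations of cluster and pool with at least 50 cells, which share libraries and depth, as Pearson correlation of log2 of UMIs per 10,000 plus 0.1. Among 6645 genes the 3 nearest to P2ry12 were P2ry13 (0.99), Slc2a5 (0.99) and Adgrg1 (0.98), and those nearest to P2ry13 were P2ry12, Pag1 and Gpr34. Nearest to Entpd1 were Vsir (0.97), Tgfbr1 and Gna15, to Adora3 Siglech (0.98), Lrrc3 and Tmem100, and to P2ry6 Arl4c (0.97), Snx5 and Tgfb1. P2rx7 stood nearest to Mtus1 (0.95), Bmp2k and Sft2d1, and P2rx4 to Bnip2 (0.90), Zeb2 and Cyba. Over the 30 microglia-like combinations alone the correlation of P2ry12 was 0.98 with P2ry13, 0.94 with Entpd1, 0.91 with Adora3, 0.88 with P2rx7, 0.82 with P2ry6 and -0.34 with P2rx4. The 47 combinations include other cell classes, so the ranking there also holds differences between classes. Over the 30 the nearest to P2ry12 were Slc2a5 (0.99), Selplg and Tmem119, and to P2ry13 Cmtm6 (0.98), Zfhx3 and P2ry12. Nearest to P2rx4 were H2-K1 (0.78), H2-D1 and Slfn2, and the nearest genes of the others differed too.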

How the data were processed

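The deposited files hold UMI counts per gene and cell barcode, made by the authors with Cell Ranger 7.1.0 on mm10 per the submitters' processing notes, while cellranger 6.1.2 stands in the deposited matrices, per the file headers. The sources used here do not say whether intronic reads entered the counts, which would add unspliced RNA. Cells had been called before deposit.

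Barcodes were kept from 500 genes and 1000 UMIs upwards, with no more than 10% mitochondrial UMIs. Scrublet, run per pool, called 8 cells, too few for a working doublet call, so doublets remained. After scaling to 10000 UMIs and taking logs, 2000 variable genes that included no purinergic gene gave 30 components. A graph of 15 neighbours was clustered by the Leiden method at resolution 0.8 into 21 clusters (scanpy 1.11.5, leidenalg 0.10.2, Python 3.11.15). Clusters were named from markers, at least 3 of them in 25% of cells, and end in -like.

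Sums per pool were fitted with edgeR 4.0.16 (R 4.3.3), sex plus treatment, TMM scaling, default low-count filter, quasi-likelihood test, threshold 0.05. SE is the absolute log2 change over the square root of F. Alternatives used DESeq2 1.42.0, library totals, other filters and omitted pools. Positions came from GENCODE M21, promoters from RefSeq.

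The 7 genes, the marker lists and the purinergic list were chosen with earlier results of these data known. The genes named were the 7, past-threshold genes of the purinergic list, genes within 100 kb and the 3 most correlated genes of each. Other named genes were chosen after their values were seen.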

Additional observations from a re-analysis of the deposited data

Results flagged for a closer look

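Inside some microglia-like clusters the sexes moved in opposite directions for single genes. Values are log2 ratios of unscaled UMIs per 10,000, stroke over sham, with 1 pool behind each, and the difference between the sexes was not tested. In cluster 3 P2ry13 was 0.22 in males and -0.45 in females, a difference of 0.67. P2ry12 was 0.20 in males and -0.17 in females, a difference of 0.37. For these 2 genes the counting intervals of stroke and sham were apart in both sexes. P2rx7 (0.32 and -0.28 in males and females, a difference of 0.60) and Adora3 (0.10 and -0.35, a difference of 0.45) showed the same signs. P2rx4 had the opposite signs, with -0.35 in males and 0.13 in females and a difference of -0.48.

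In cluster 0 P2rx7 was 0.07 in males and -0.16 in females, a difference of 0.23, and P2ry6 was 0.03 and -0.04, a difference of 0.0634. In cluster 7 P2rx4 was 0.32 in males and -0.34 in females, a difference of 0.66. In these 3 cases the counting intervals of stroke and sham overlapped in both sexes.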

How the results depend on the processing

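In all microglia-like cells P2ry12, P2ry13 and Entpd1 kept their direction and their call under every alternative run, and were smallest after thinning without dividing cells (-0.71, -0.71 and -0.86). With library totals P2ry6 was -0.59 and called, P2rx4 was 0.17 and not called, and 0 of the 7 genes rose. Of all 14188 genes 2294 rose there. Without the sex term P2ry6 was -0.29 and called. Thinning gave P2rx7 -0.30, and thinning without dividing cells gave P2rx7 -0.15 and Adora3 -0.25, none of them called. In the latter setting 3 of the 7 genes fell, and 6 further purinergic genes rose and 4 fell. Of all 11904 genes tested there 1804 rose and 1287 fell. The further genes that fell numbered 23 with library totals and 7 with DESeq2, where 6386 and 1746 of all 14188 genes fell. Leaving out 1 pool gave ranges of -0.33 to -0.20 for P2ry6, 0.42 to 0.58 for P2rx4, -0.48 to -0.32 for P2rx7 and -0.62 to -0.52 for Adora3, 0 to 1 of the 7 genes rising and 3 to 6 falling, and 8 to 12 further genes rising and 6 to 14 falling. Such fits have no sex term and assume that a lone pool varies like the others. Male minus female was 0.01 for P2ry6, but -0.0238 with library totals and -0.0175 with thinning. Within clusters library totals turned the sign of P2ry6 (-0.0106) and P2rx7 (-0.0815) in cluster 0, P2rx4 (-0.0896) and P2rx7 (-0.0122) in cluster 3 and P2rx4 (-0.00145) in cluster 7. The cause of these changes was not tested. No paired analysis was possible because the labels give no replicate numbers, so the only blocking was the sex term, which set stroke against sham within each sex. Leaving out cells with 2 UMIs of any other class's markers left as few as 1 cell in a pool and was not run. Of 28 levels 22 moved with a mean over cells in place of sums and 10 with the highest UMI minimum in every pool, and all 28 shares moved with thinning. With 1 pool of 4 mice per group, variation between mice limits every comparison. Of the 7, genes under about 2 UMIs per 10,000 were detected in a minority of cells at 3000 UMIs.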

Other observations

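A cluster of 430 cells led by H2-Eb1, H2-Aa, Cd74, Mgl2 and Cd209a, genes of antigen presentation, could not be named from the markers used. P2ry6 had 0.98 and 0.80 UMIs per 10,000 there in the female and male stroke pools, against 2.73 and 2.49 in the female and male sham pools. P2ry12 had 0.49 and 0.57 in the female and male stroke pools, against 2.22 and 4.73 in the female and male sham pools. Entpd1 had 0.38 and 0.33 against 1.26 and 1.596. P2rx4 did not share this pattern, with 1.19 and 1.18 in the female and male stroke pools, against 0.997 and 0.946 in the female and male sham pools. The 4 pools held 157, 66, 102 and 105 of these cells in the order female stroke, female sham, male stroke and male sham, and no test was made.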
